A study of Mus musculus with 6 samples.

Results

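The 10 heat shock and co-chaperone genes described here were measured in neutrophils sorted from mouse lung: the cytosolic HSP70 genes Hspa1a, Hspa1b and Hspa8, the cytosolic HSP90 genes Hsp90aa1 and Hsp90ab1, the J-domain co-chaperone genes Dnaja1 and Dnajb1, the mitochondrial chaperonin genes Hspe1 and Hspd1, and Hsf1, the transcription factor that switches on the response. They were chosen by name and located by gene identifier with GENCODE M21 symbols. All 10 were found among the 55487 genes of the count table, and all 10 were among the 15774 genes that passed the filter on low counts. The 3 mutant libraries came from mice with loxP-flanked Tgfbr2 (TGFbR2-fl/fl), the gene of the type II TGF-beta receptor, and the Mrp8-Cre transgene, also written S100A8-cre,-EGFP, in which the promoter of S100A8, a gene of the myeloid lineage, drives Cre recombinase. The 3 wt libraries came from littermates with the same floxed Tgfbr2 and no Cre, so that both groups carried the floxed alleles and the Cre and EGFP transgene separated them. The age and sex of the mice are not given in the labels. In both groups lungs were perfused, minced and digested with liberase, an enzyme blend that breaks down matrix, and neutrophils were sorted as Ly6G-positive cells.

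Heat shock proteins are chaperones that bind unfolded proteins and help them to refold. HSP70 proteins do so in cycles of ATP hydrolysis that J-domain proteins start, HSP90 proteins hold client proteins such as kinases and steroid receptors in an active form, and the chaperonin Hspd1 folds proteins inside mitochondria under the lid formed by Hspe1. Some of these genes are transcribed in unstressed cells, while others are switched on by HSF1 when heat or other stress unfolds proteins, and warm enzymatic digestion of tissue is known to raise the inducible ones in cells prepared for sorting. Every library here came from digested lung, so an effect of digestion on these genes cannot be read from the design, which compares mutant with wt cells that were handled alike as far as the labels say.

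None of the 10 genes passed an adjusted p of 0.05 between mutant and wt in edgeR's quasi-likelihood test, where 0.00634% of all tested genes passed. DESeq2 and limma-voom called none of the 10 either, beside 0.983% and 0.00634% of all genes. Mutant cells had higher mean levels of 9 of the 10, the exception being Hsp90ab1, which turned positive when scaled by library totals alone, with log2 fold changes from -0.01 to 0.50 and a median of 0.22, beside a median of 0.01 over all tested genes, of which 50.7% were positive. Hspa1a and Hspa1b, whose coding sequences are near-identical, are not independent cases in this count. Hspa1a and Hspa1b had the widest range of the 10 over the 6 libraries, 2.28-fold and 2.34-fold. Among the 6910 genes averaging 10 CPM or more, as Hspa1a does and Hspa1b does not, 11.9% ranged at least 2-fold. Of Hspa1a and Hspa1b, mutant replicate 3 held 2.11 and 2.01 times the mean of the other 5 libraries. Without that library 6 of the 10 were positive and the median was 0.10. Dnaja1 and Hsp90aa1 were the 2 genes whose mutant libraries all lay above the wt libraries, a separation in the same direction seen in 6.82% of all tested genes. By edgeR, Dnaja1 was the 1 gene with an unadjusted p under 0.05, against 6.73% of all tested genes in either direction and 3.51% on the higher side. By DESeq2, both Dnaja1 (unadjusted p = 0.0178) and Hspa1a (unadjusted p = 0.0349) were under 0.05.

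The libraries held 30403494 to 35906780 counts, and although the design gives 3 samples a group, which mouse or mice each came from is not labelled, so the p-values cover the spread among these 6 libraries, which may be technical. Levels below are in CPM, counts scaled to library size and composition, and levels of different genes are compared in FPKM, which also divides by the summed exon length. Tgfbr2 stood at 176, 205 and 181 CPM in mutant replicates 1 to 3, against 186, 185 and 201 CPM in wt replicates 1 to 3. Those counts pool all exons, including the ones outside the floxed part, and do not check the genotype. Of the 12 neutrophil markers all were detected, with a sum of 24660.4 to 30502 CPM in mutant libraries and 25544 to 26997 CPM in the wt ones, and Ly6g itself was at 14.4 to 33.6 CPM in mutant libraries and 19.3 to 35.2 CPM in the wt ones. Single markers moved in both directions, 3 with a positive and 9 with a negative log2 fold change. DESeq2 called 1 higher and 2 lower, beside 0.514% and 0.469% of all genes, and edgeR called 0. In bulk samples, fewer cells of a type and less RNA per cell cannot be told apart.

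Hspa1a and Hspa1b are a tandem pair of single-exon genes on the minus strand of chromosome 17 in GRCm38, at 34969190 to 34972156 and at 34956436 to 34959238, and encode the stress-inducible HSP70 proteins. Their promoters are shown because both genes peaked in the same library while Hspa1a had 9.89 to 13.9 times the counts of Hspa1b. The 250 bases before each start site, from RefSeq's GRCm38.p6 windows, are at chr17:34972157-34972406 for Hspa1a and chr17:34959239-34959488 for Hspa1b, both read 5′ to 3′ on the minus strand, with capitals marking a match to the heat shock element letters GAANNTTC, to which HSF1 is known to bind as part of longer arrays.
Hspa1a: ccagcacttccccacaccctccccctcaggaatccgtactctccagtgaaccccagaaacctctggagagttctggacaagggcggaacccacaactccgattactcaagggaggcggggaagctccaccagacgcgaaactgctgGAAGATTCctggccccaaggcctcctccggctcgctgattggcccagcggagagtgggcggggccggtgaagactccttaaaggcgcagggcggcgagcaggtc
Hspa1b: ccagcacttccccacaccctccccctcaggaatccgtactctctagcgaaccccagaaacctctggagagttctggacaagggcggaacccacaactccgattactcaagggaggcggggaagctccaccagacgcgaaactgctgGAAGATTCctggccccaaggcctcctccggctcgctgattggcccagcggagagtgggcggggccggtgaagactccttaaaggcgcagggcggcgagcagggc
These sequences were 98.8% identical. They differed by the substitutions C44T, T47C and T249G, written as the Hspa1a base, the position counted from 1 at the 5′ end of the printed sequence, and the Hspa1b base. The match lay at -104 to -97 from the start site in both.

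The chaperonin genes Hspd1 and Hspe1 are a head-to-head pair on chromosome 1, Hspd1 on the minus strand at 55077835 to 55088243 and Hspe1 on the plus strand at 55088132 to 55091307. A run of 4 heat shock element units, alternating TTC and GAA with 2 free bases between neighbours, lay at -89 to -72 from the RefSeq start of Hspe1. That stretch is inside the annotated span of Hspd1. For Hspd1 the window of the RefSeq start at 55087932 held it, and the window of the start at 55088243 did not. The run is shown because both genes hold it in a window. It is printed 5′ to 3′ on the plus strand with 6 flanking bases on either side, chr1:55088053-55088082 in GRCm38.p6, capitals marking the element.
Hspe1: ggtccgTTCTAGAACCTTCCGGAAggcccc
Of the 27025 genes with a window of this kind, 250 bases before to 50 after a start, 5 held this 18-base pattern on either strand, a share of 0.0185%. The 2-unit letters GAANNTTC or TTCNNGAA, each its own reverse complement and each contained in the longer run, were in a window of 5 of the 6 heat shock genes with an entry, against 16.97% of all genes. Those were Hspa1a, Hspa1b, Dnaja1, Hspe1 and Hspd1, while the windows of Dnajb1 held neither. These genes are not independent cases, since Hspa1a and Hspa1b have near-identical promoters and Hspe1 and Hspd1 share the same stretch. Dnaja1 had 3 windows and Hspd1 had 2, and not all of them held a match. A match is a description of letters and not of binding. Hspa8, Hsp90aa1, Hsp90ab1 and Hsf1 had no entry.

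Hspa1a stood at 95.5, 87.0 and 187 CPM in mutant replicates 1 to 3, against 82.0, 91.3 and 88.1 CPM in wt replicates 1 to 3. Mutant replicate 3 stood alone, and the other 5 libraries lay within 82.0 to 95.5 CPM, so that the groups overlapped. The means were 123.2 ± 55.5 CPM in mutant libraries and 87.2 ± 4.72 CPM in the wt ones (SD, n = 3 each). The log2 fold change was 0.50 (SE 0.25, 95% interval -0.06 to 1.06, adjusted p = 0.791 by edgeR), and without mutant replicate 3 it was 0.06 with an adjusted p of 1.00.

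Hspa1b stood at 6.88, 6.30 and 14.5 CPM in mutant replicates 1 to 3, against 6.21, 7.89 and 8.91 CPM in wt replicates 1 to 3. Mutant replicate 3 was again the highest library, and the other mutant libraries lay among the wt ones. The estimated log2 fold change was 0.27 (SE 0.35, adjusted p = 0.963 by edgeR), and it turned to -0.22 without mutant replicate 3. Counts of this pair are uncertain as a split between copies. The coding sequences were 99.4% identical in GENCODE M21, with 8 mismatches and 3 gap bases and an unbroken identical run of 638 bases, and 37.9% of the stretches of 151 bases, the length of a read, in the Hspa1a transcript also occurred in Hspa1b. The sources used here do not give how the authors treated reads that map to both copies. Hspa1a also shares 564 exonic bases with Gm20481 on the other strand, a gene with 0 counts. The libraries do not mark strand, so reads from those bases could be left out of both genes. The 0 for Gm20481 does not show whether they were. The ratio of Hspa1a to Hspa1b counts was 13.9, 13.8 and 12.9 in mutant replicates 1 to 3, against 13.2, 11.6 and 9.89 in wt replicates 1 to 3.

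The counts of both copies were also summed into 1 row, which depends less on the split. Reads left out because they match both copies would be missing from the sum as well. In the summed row mutant replicates 1 to 3 had 102, 93.3 and 202 CPM, against 88.3, 99.2 and 97.0 CPM in wt replicates 1 to 3. Mutant replicate 3 was the one library outside a range of 88.3 to 102 CPM. For the summed row the log2 fold change was 0.48 (SE 0.25, 95% interval -0.08 to 1.04, adjusted p = 0.799 by edgeR). It was 0.04 without mutant replicate 3.

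**Figure D1:**
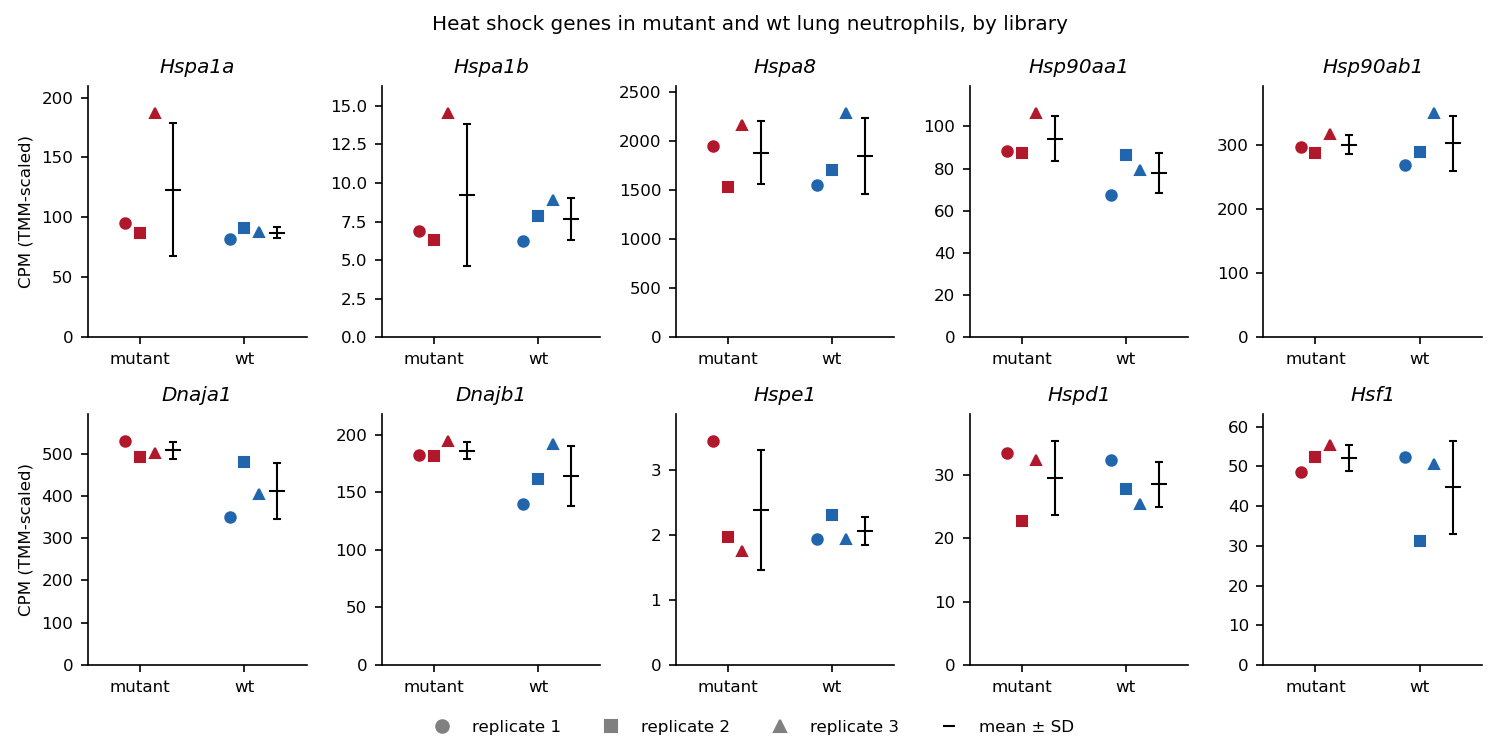
Levels of the 10 heat shock genes in CPM (vertical axis, from 0, with its own scale for each gene) in 3 mutant (red) and 3 wt (blue) libraries; marker shapes are replicates and the black bar is the mean ± SD. Mutant replicate 3 (triangle) stands apart for Hspa1a, at 187 CPM, and for Hspa1b, at 14.5 CPM, and the groups are fully separate for Hsp90aa1 and Dnaja1.

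Hspa8, the constitutive cytosolic HSP70 (chromosome 9, plus strand, 40800984 to 40810087), stood at 1952, 1531 and 2165 CPM in mutant replicates 1 to 3, against 1549, 1708 and 2289.8 CPM in wt replicates 1 to 3. Both groups covered nearly the same range, and the highest library was wt replicate 3. Its log2 fold change was 0.03 with a 95% interval of -0.33 to 0.38, which in folds is 0.796 to 1.30 (adjusted p = 0.997, edgeR). Of the 151-base stretches of its transcript, 55.9% also occurred in transcripts of other genes, and those 5 other genes together held 0.963% as many counts as Hspa8. The level of Hspa1a per length was 7.09%, 8.24% and 12.5% of that of Hspa8 in mutant replicates 1 to 3, against 7.68%, 7.75% and 5.58% in wt replicates 1 to 3. The inducible gene thus stayed well below the constitutive one in every library, and mutant replicate 3 had the highest share.

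Hsp90aa1, the stress-inducible cytosolic HSP90 gene (chromosome 12, minus strand, 110690605 to 110702728), stood at 88.3, 87.5 and 106 CPM in mutant replicates 1 to 3, against 67.7, 86.6 and 79.3 CPM in wt replicates 1 to 3. Each mutant library lay above each wt library, though mutant replicate 2 and wt replicate 2 were nearly equal. The means were 94.1 ± 10.7 CPM in mutant libraries and 77.9 ± 9.51 CPM in the wt ones (SD, n = 3 each), with a log2 fold change of 0.27 (SE 0.14, adjusted p = 0.789 by edgeR). Without mutant replicate 3 the log2 fold change was 0.17, and without wt replicate 1 it was 0.18.

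Hsp90ab1, the constitutive HSP90 gene (chromosome 17, minus strand, 45567775 to 45573271), stood at 297, 288 and 318 CPM in mutant replicates 1 to 3, against 269, 289 and 350.5 CPM in wt replicates 1 to 3. The mutant libraries lay inside the wt range. Its log2 fold change of -0.01 had a 95% interval of -0.27 to 0.25, in folds 0.831 to 1.19 (adjusted p = 0.998, edgeR). The level of Hsp90aa1 per length was 22.6%, 23.2% and 25.5% of that of Hsp90ab1 in mutant replicates 1 to 3, against 19.2%, 22.8% and 17.3% in wt replicates 1 to 3, so that the shares of wt replicate 2 and mutant replicates 1 and 2 were close. Of the 151-base stretches of the Hsp90aa1 transcript 36.0% also occurred in transcripts of other genes, against 0 of those of Hsp90ab1.

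Dnaja1, a J-domain partner of HSP70 (chromosome 4, plus strand, 40722150 to 40737149), stood at 531, 492 and 502 CPM in mutant replicates 1 to 3, against 349.9, 481 and 405 CPM in wt replicates 1 to 3. The mutant libraries lay close together and above the wt ones, which spread more widely. The means were 508 ± 20.0 CPM in mutant libraries and 412 ± 65.6 CPM in the wt ones (SD, n = 3 each). On the log2 scale the fold change was 0.30 (SE 0.12, unadjusted p = 0.0297, adjusted p = 0.652 by edgeR), and it lay between 0.20, without wt replicate 1, and 0.43, without wt replicate 2, when each library was left out in turn. Exons of Dnaja1 share 608 bases with Smu1 on the opposite strand, a gene with 20.7% as many counts, at 100.2 ± 8.26 CPM in mutant libraries and 89.9 ± 13.5 CPM in the wt ones (SD, n = 3 each). The library method does not mark strand, so reads from the shared bases cannot be told apart.

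Dnajb1, the J-domain protein that is the stress-inducible partner of HSP70 (chromosome 8, plus strand, 83608193 to 83612653), stood at 182, 181 and 195 CPM in mutant replicates 1 to 3, against 139, 162 and 192 CPM in wt replicates 1 to 3. The mutant libraries lay together at the upper end and wt replicate 3 among them. For Dnajb1 the log2 fold change was 0.18 (SE 0.13, 95% interval -0.10 to 0.46, adjusted p = 0.890 by edgeR), and it was 0.075 without wt replicate 1 and 0.30 without wt replicate 3.

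Hspd1, the mitochondrial HSP60, stood at 33.4, 22.8 and 32.4 CPM in mutant replicates 1 to 3, against 32.4, 27.8 and 25.4 CPM in wt replicates 1 to 3. The mutants held both the highest and the lowest library. Its log2 fold change was 0.05 with a 95% interval of -0.37 to 0.47 (adjusted p = 0.996, edgeR). Hspe1, its partner lid, had only 57 to 125 counts in a library and stood at 3.46, 1.96 and 1.75 CPM in mutant replicates 1 to 3, against 1.94, 2.31 and 1.94 CPM in wt replicates 1 to 3. Mutant replicate 1 was the high library, and the others lay together. Its 95% interval of -0.79 to 1.22 on the log2 scale, in folds 0.577 to 2.33, was the widest of the 10. The transcripts share 112 exonic bases at their starts, so reads there cannot be told apart. Of the 151-base stretches of Hspe1, 13.9% also occurred in transcripts of 1 other gene, and the 6 rows named as its pseudogenes held 8 counts in all.

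Hsf1 (chromosome 15, plus strand, 76477422 to 76501913) stood at 48.7, 52.4 and 55.3 CPM in mutant replicates 1 to 3, against 52.3, 31.3 and 50.7 CPM in wt replicates 1 to 3. Wt replicate 2 was the low library, and the other 5 lay within 48.7 to 55.3 CPM. The fold change on the log2 scale was 0.22 (SE 0.19, adjusted p = 0.935 by edgeR), and it was 0.02 without wt replicate 2 and 0.34 without wt replicate 1. HSF1 is controlled largely by release from chaperones, trimerization and phosphorylation, which RNA levels do not show.

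**Figure D2:**
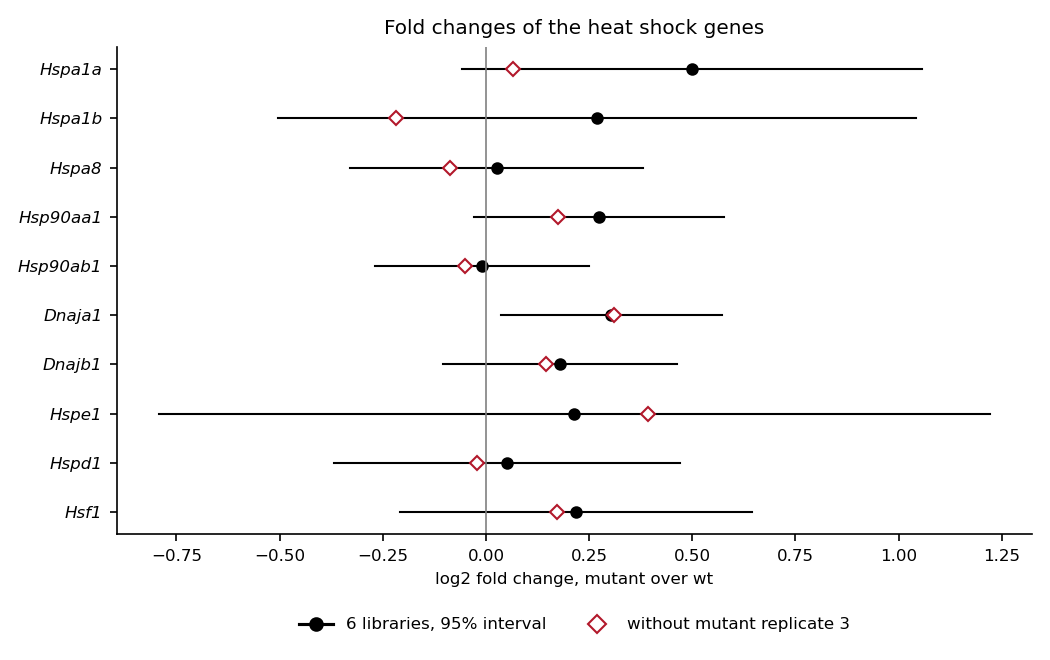
Log2 fold change of mutant over wt (horizontal axis) for each gene; filled points with lines are edgeR estimates with 95% intervals from 6 libraries and open diamonds are the estimates without mutant replicate 3. Every interval but that of Dnaja1 crosses 0, and Hspa1a moves from 0.50 to 0.06 when mutant replicate 3 is left out.

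Per length, Hspa8 was by far the most abundant of the 10, at 356 to 532 FPKM, and made up 55.9% to 64.4% of their summed FPKM in each library. It ranked 104 of the 15774 tested genes by mean FPKM. Hsp90ab1 followed at 89.6 to 117 FPKM, and then Dnajb1 at 43.5 to 60.8 FPKM and Dnaja1 at 40.5 to 61.5 FPKM, which did not differ beyond their spread. Hspa1a, at 27.7 to 63.1 FPKM, overlapped Dnaja1 through mutant replicate 3. Hsp90aa1 lay at 17.2 to 27.1 FPKM, below Hspa1a in all 6 libraries and with no overlap. Hspd1 followed at 8.62 to 12.7 FPKM and Hsf1 at 4.41 to 7.79 FPKM, again apart from their neighbours above. Hspa1b, at 2.21 to 5.19 FPKM, and Hspe1, at 1.19 to 2.34 FPKM, overlapped the next gene above in range, although the order was the same in all 6 libraries. In length-scaled level 92.8% of tested genes lay below Hspa1a and 45.2% below Hspe1. The share of 151-base stretches found in other genes was 0 for Hsp90ab1, Dnajb1 and Hsf1 and 13.9% to 55.9% for the other 7 genes, whose levels would be too low if reads that match several genes were left out. How such reads were counted is not known here, and their part in the order was not tested. FPKM uses the summed length of all annotated exons, which is 8629 bases for Dnaja1 and 1474 for Hspe1.

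**Figure D3:**
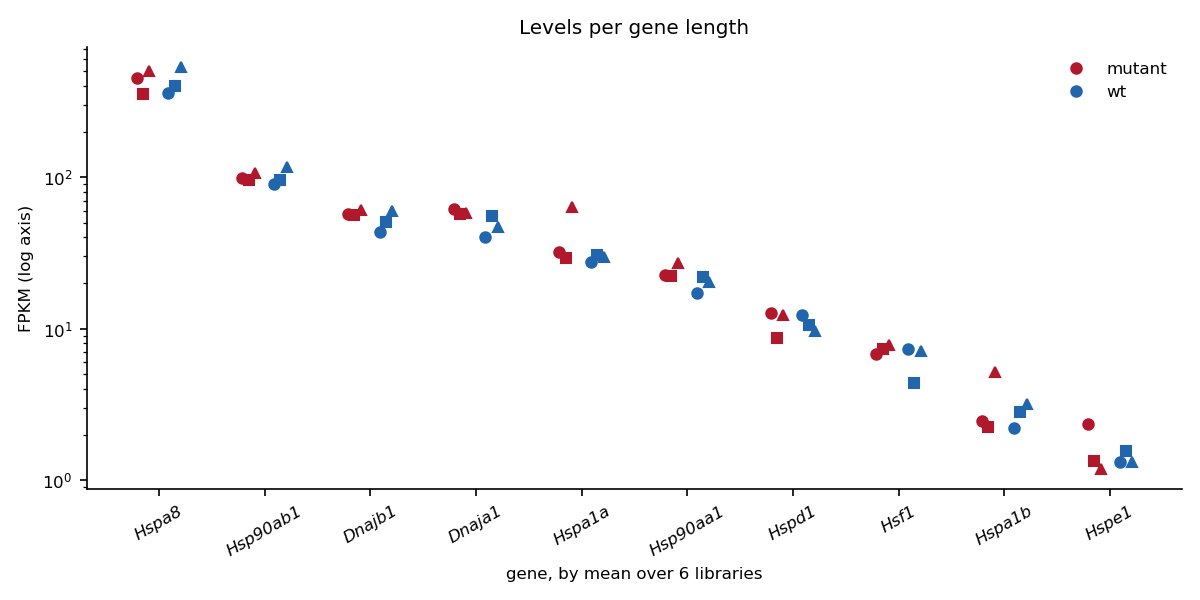
Level per length in FPKM (vertical log axis) of the 10 genes in order of their mean, in mutant (red, left) and wt (blue, right) libraries with replicates as circle, square and triangle. Hspa8 lies at 356 to 532 FPKM, above all others, and the mutant replicate 3 triangle of Hspa1a reaches the level of Dnaja1.

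Of the 10 genes 5, namely Hspa1a, Hspa1b, Hsp90aa1, Dnajb1 and Hsf1, had their highest level in mutant replicate 3, where 18% of all tested genes were highest, and 6, namely Hspa1a, Hspa1b, Hsp90aa1, Hsp90ab1, Dnaja1 and Dnajb1, had their lowest level in wt replicate 1, where 16.3% of all tested genes were lowest. In both counts Hspa1a and Hspa1b are not independent cases, since the split of reads between these copies is uncertain. Hspa8 and Hsp90ab1 peaked instead in wt replicate 3, and Hspe1, Hspd1 and Dnaja1 in mutant replicate 1, so the genes did not follow 1 order over the libraries. The fitted variation between replicates, as a biological coefficient of variation, was 0.219 for Hspa1a, against a median of 0.122 over the 500 genes nearest in level, of which 98.8% had a lower value. Hspa8 was also more variable than most genes of its level, at 0.152 against 0.109, with 95.6% lower. Of their like-level genes 87.2% were lower than Hsf1 and 82.2% lower than Hspa1b, 58.6% to 73.6% for Hsp90aa1, Hsp90ab1, Dnaja1, Dnajb1 and Hspd1, and 20.4% for Hspe1.

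The genes whose levels over the 6 libraries were most like those of the summed Hspa1a and Hspa1b row were sought among 6909 genes averaging 10 CPM or more, by the root-mean-square difference of centred log2 CPM. They were Rcn3, a calcium-binding protein of the secretory pathway, at 0.08, Enpp5 at 0.11, the collagen I chain gene Col1a2 at 0.13, the extracellular superoxide dismutase gene Sod3 at 0.13 and Gadd45g, a stress-induced gene, at 0.14, against a median of 0.45 over all compared genes. Col1a2 stood at 60.4, 58.5 and 116 CPM in mutant replicates 1 to 3, against 63.9, 54.4 and 61.9 CPM in wt replicates 1 to 3, with mutant replicate 3 again alone. The nearest of the other heat shock genes was Hsp90aa1, at place 147 with 0.27. The genes nearest to Hsp90aa1 were Hax1, Rexo2, Smim7, Btbd19 and Sbds, at 0.04 to 0.06 against a median of 0.28, and among the heat shock genes Dnaja1 came at place 81 and Dnajb1 at place 165. The points of such a comparison share 6 libraries, and it says nothing of shared function.

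Fibroblast transcripts were highest in the same mutant replicate 3. All 8 fibroblast markers were detected, and 7 of them were highest in that library. Their sum was 619, 730.4 and 1104 CPM in mutant replicates 1 to 3, against 547, 525 and 607 CPM in wt replicates 1 to 3, led by Inmt at a mean of 206 CPM. All 8 alveolar type 2 markers were highest there too, with a sum of 508, 587 and 958 CPM in mutant replicates 1 to 3, against 287, 503 and 220.3 CPM in wt replicates 1 to 3, led by the surfactant protein gene Sftpc. No mutant sum lay within the wt range in either list (exact permutation test over 20 assignments, two-sided p = 0.1 for each, the smallest such a design allows). Alveolar macrophage markers were at 265 to 300.1 CPM in mutant libraries and 201 to 258 CPM in the wt ones (exact p = 0.1), led by Car4, which some lung endothelial cells also express. The sums of endothelial (1156 to 1437 CPM in mutant libraries and 1294 to 1605 CPM in the wt ones), airway (mutant 40.6 to 83.9 CPM, wt 41.6 to 72.5 CPM), B and plasma cell (mutant 455 to 477 CPM, wt 297 to 494 CPM), T and NK cell (mutant 25.4 to 27.0 CPM, wt 20.5 to 38.4 CPM) and monocyte and dendritic cell markers (mutant 72.7 to 88.6 CPM, wt 81.6 to 84.8 CPM) overlapped between mutants and wt, with exact p between 0.4 and 1. Their leading genes were Cldn5, Scgb1a1, Ighm, Lck and Ly6c2, the neutrophil list was led by Csf3r (exact p = 0.9), and no marker of any list was at 0 in all libraries. The part of these cells in the Hspa1a and Hspa1b levels was not tested.

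**Figure D4:**
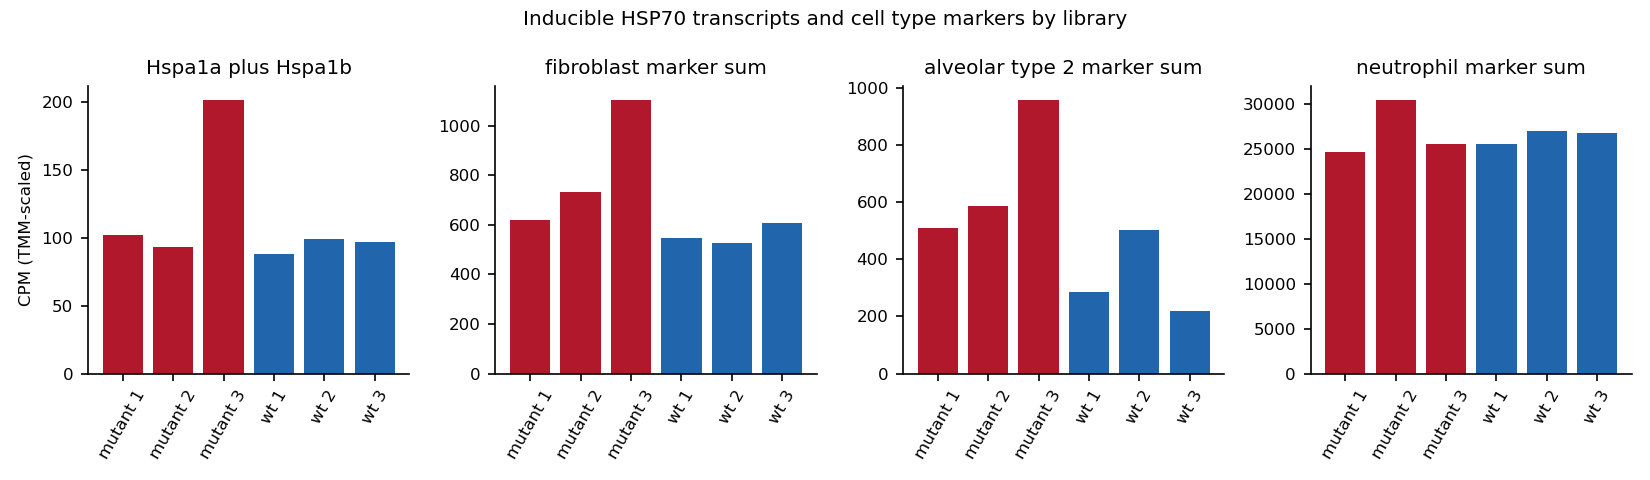
CPM (vertical axis, from 0) in each library, mutant in red and wt in blue, of the summed Hspa1a and Hspa1b row and of the summed fibroblast, alveolar type 2 and neutrophil markers. Mutant replicate 3 is the highest bar in the first 3 panels, at 202, 1104 and 958 CPM, and not in the neutrophil panel.

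Other chaperone genes were counted in lists. Of 20 tested genes among 21 other HSF1-responsive chaperone genes, 11 were positive and 9 negative with a median log2 fold change of 0.02, and 0 passed the adjusted threshold by edgeR, by DESeq2 or by limma-voom, with 1 higher and none lower before adjustment, at p under 0.05, against 3.51% and 3.22% of all tested genes. A count of 1 in 20 is near that background. The gene was Hspa4, an HSP110-family exchange factor of HSP70, at 136 ± 7.29 CPM in mutant libraries and 105 ± 8.01 CPM in the wt ones (SD, n = 3 each), with an adjusted p of 0.481 by edgeR. The small heat shock protein gene Cryab was at 13.05 ± 3.79 CPM in mutant libraries and 9.0 ± 1.64 CPM in the wt ones, and its groups overlapped.

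Of 25 HSP70 and HSP90 co-chaperones 12 had positive and 13 negative fold changes, the median log2 value being -0.02. Of these 25 genes 0 passed by edgeR or limma-voom, with 0 higher and 1 lower before adjustment at p under 0.05, against 3.51% and 3.22% of all tested genes, while DESeq2 called 1 of them lower, beside 0.469% of all genes. It was Fkbp5, an HSP90 co-chaperone of steroid receptors that glucocorticoids are known to induce, at 23.7, 41.8 and 32.7 CPM in mutant replicates 1 to 3, against 88.3, 61.2 and 50.7 CPM in wt replicates 1 to 3. Each mutant library lay below each wt library, and the log2 fold change was -1.03 (SE 0.24, adjusted p = 0.304 by edgeR and 0.0056 by DESeq2). Sugt1, another HSP90 co-chaperone, was at 35.5 ± 1.85 CPM in mutant libraries and 40.8 ± 5.59 CPM in the wt ones (SD, n = 3 each).

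In the cytosolic chaperonin TRiC and prefoldin, 9 of 14 genes were positive with a median of 0.02, and 0 passed by edgeR, DESeq2 or limma-voom, with 0 at an unadjusted p under 0.05. Cct8, a TRiC subunit, was at 86.8 ± 10.8 CPM in mutant libraries and 73.9 ± 3.80 CPM in the wt ones, and the prefoldin subunit Pfdn5 at 32.6 ± 11.6 CPM in mutant libraries and 37.5 ± 6.78 CPM in the wt ones (SD, n = 3 each). Of 21 chaperones of the endoplasmic reticulum and mitochondria 13 were positive with a median of 0.06, and 0 passed by the same tools, with 2 higher and 0 lower at p under 0.05 before adjustment, against 3.51% and 3.22% of all tested genes. Both belong to the endoplasmic reticulum. Hspa5, its HSP70, was at 1016, 972 and 1069.6 CPM in mutant replicates 1 to 3, against 796, 844 and 968 CPM in wt replicates 1 to 3, separate by a narrow margin with a log2 fold change of 0.23 (adjusted p = 0.694 by edgeR). Sdf2l1 was at 6.14 ± 0.881 CPM in mutant libraries and 3.45 ± 1.03 CPM in the wt ones (SD, n = 3 each). Of 7 tested HSF factors and regulators among 8, 3 were positive with a median of -0.04, and 0 passed by edgeR, DESeq2 or limma-voom, with 0 higher and 1 lower before adjustment, against 3.51% and 3.22% of all tested genes. The gene was the deacetylase Sirt1 at 4.20 ± 1.55 CPM in mutant libraries and 7.75 ± 3.30 CPM in the wt ones (SD, n = 3 each), with overlapping groups and an unadjusted p of 0.0499 by edgeR. The acetyltransferase Ep300 was at 89.4 ± 1.01 CPM in mutant libraries and 100.2 ± 4.22 CPM in the wt ones (SD, n = 3 each).

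Immediate early genes, which are also known to be raised by tissue dissociation, did not share 1 direction. Of 25 such genes 14 were positive and 11 negative, the median being 0.05, and 0 passed by edgeR or limma-voom over all genes, while DESeq2 called 4 higher and 0 lower, beside 0.514% and 0.469% of all genes. At an unadjusted p under 0.05 edgeR had 7 higher and 2 lower, against 3.51% and 3.22% of all tested genes. The zinc finger factors Egr1 and Egr2 led, Egr1 at 860.1 ± 53.4 CPM in mutant libraries and 493 ± 92.2 CPM in the wt ones, and Egr2 at 26.8 ± 4.58 CPM in mutant libraries and 12.6 ± 1.57 CPM in the wt ones (SD, n = 3 each). Of the 25 genes 5 were highest in mutant replicate 3, the library in which Hspa1a and Hspa1b peaked. In the other HSF1-responsive list 7 of 20 were highest there, beside 18% of all tested genes.

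**Figure D5:**
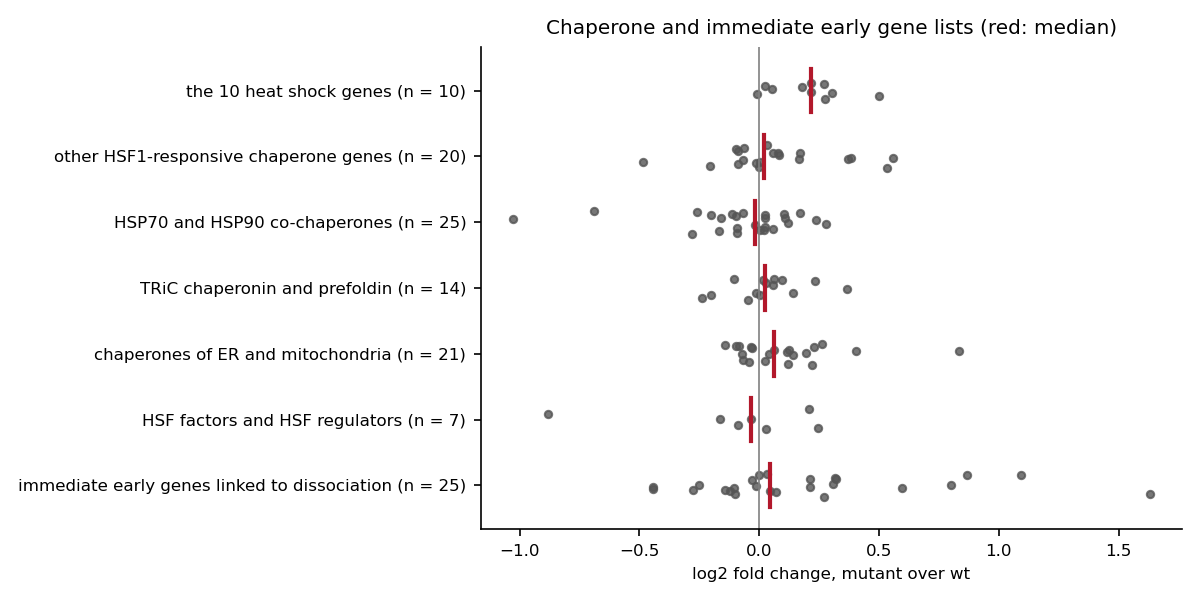
Log2 fold change of mutant over wt (horizontal axis) of each tested gene in the 10 heat shock genes and in 6 lists of other chaperones, heat shock factors and immediate early genes; a point is a gene, its height within a row is arbitrary, and the red bar is the list's median. The medians of the 6 lists lie between -0.04 and 0.06, and that of the 10 heat shock genes at 0.22.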

How the data were processed

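RNA was sequenced from 6 libraries of sorted lung neutrophils. Per the labels' protocols, cDNA from 2 ng of total RNA was made by SMARTSeq v2, which does not mark strand, and read as paired ends of 151 cycles. The authors deposited raw whole-number read counts per gene with no normalization. STAR, featureCounts and GRCm38 are named in the submitters' processing notes; the sources used here give no versions and not the treatment of reads that map to several places. The annotation GENCODE M21 gave symbols to 55094 identifiers exactly and to 300 without version, while 93 had none. The deposited summed exon length per gene, another unit in that table, served for FPKM.

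Genes were kept by filterByExpr (minimum count 10), scaled by TMM and tested with edgeR 4.0.16 (R 4.3.3) by the quasi-likelihood test, unpaired, with Benjamini-Hochberg adjustment at 5% over 15774 genes; DESeq2 1.42.0 and limma 3.58.1 (limma-voom) were alternatives. Log2 CPM used a prior count of 2. The members and lists were chosen with earlier results of these data known. Named genes are all members, for each list the 2 with the smallest p, for each marker list the most abundant gene, and the 5 genes nearest in pattern; Smu1, Tgfbr2, Ly6g and the genes of the closing section were added after their values were seen. Counts without molecular identifiers include PCR copies. On simulated data for this comparison over 15774 genes, 50 were changed at each fold. Among those averaging 10 CPM or more, the test recovered 12.5% of 24 changed 1.5-fold and 69.2% of 26 changed 2-fold. Over all 50 it recovered 6% and 38%, with 7 false calls at each fold. Hspa1b and Hspe1 average under 10 CPM.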

Additional observations from a re-analysis of the deposited data

How the results depend on the processing

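No heat shock gene was called in either direction under any of 13 alternatives: the DESeq2 test, limma-voom, robust fitting in edgeR, scaling by DESeq2 size factors or by totals, dropping the count filter, requiring a mean of 10 CPM (which left 8 of the 10), and leaving out each of the 6 libraries. The summed Hspa1a and Hspa1b row kept its positive sign throughout, from 0.04 without mutant replicate 3 to 0.68 without mutant replicate 2 (log2 fold change, adjusted p 0.466 to 1.00). The number of positive members, counted under the alternatives after the data were seen, ran from 6 of 10 without mutant replicate 3 to 10 without mutant replicate 2 and with library totals alone. Hsp90ab1 was positive with library totals alone (0.0034) and with the 10 CPM minimum (0.011), and ran from -0.087 to 0.11 as libraries were left out. Hspa8 ran from -0.088 to 0.21, Hspd1 from -0.046 to 0.21, Hspe1 from -0.15 to 0.39 and Hspa1b from -0.22 to 0.48 as libraries were left out. Adding rows named as pseudogenes of Dnaja1, Hspe1 and Hspd1 turned no sign. Those rows held 0, 8 and 105 counts, at most 1.88% of the gene's own, so this check could hardly move an estimate. Copies under other names were not added. Over all genes 1 was called higher and 0 lower; DESeq2's test called 81 and 74, no filter 41 and 29, the 10 CPM minimum 14 and 4, and leaving out libraries 0 to 2 higher and 0 to 1 lower; the cause was not tested. No paired analysis was possible because the labels give no replicate numbers shared by the groups. Replicates 1 to 3 are numbered here in sample order within each group, and equal numbers do not mark pairs. The labels name no batch, and with 3 libraries per group the simulated test found few changes under 2-fold.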

Other observations

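Further HSF1-responsive chaperone genes, picked after their values were seen, differed in how they followed Hspa1a. The small heat shock protein gene Hspb1 stood at 13.5, 19.1 and 34.1 CPM in mutant replicates 1 to 3, against 16.4, 19.1 and 15.7 CPM in wt replicates 1 to 3, so that mutant replicate 3 was again alone at the top. The HSP110 gene Hsph1 stood at 8.35, 9.38 and 19.3 CPM in mutant replicates 1 to 3, against 19.5, 10.9 and 9.19 CPM in wt replicates 1 to 3, high in 1 library of each group. The HSP70 co-chaperone gene Bag3 stood at 9.09, 7.18 and 18.7 CPM in mutant replicates 1 to 3, against 7.72, 9.74 and 19.7 CPM in wt replicates 1 to 3, also high in 1 library of each group, though in wt in another one than Hsph1. The groups overlapped for all 3 genes, with adjusted p between 0.917 and 0.997 by edgeR. Other genes of the same list went the other way, and Stip1 and Tcp1 were lowest in mutant replicate 3, at 29.7 and 19.7 CPM. In the whole list 7 of 20 genes were highest in that library, beside 18% of all tested genes.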
